A study of Rattus norvegicus with 6 samples.

Results

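Trypsins are the serine proteases of pancreatic juice, and 7 rat genes annotated as trypsin genes or trypsin-like loci are described here, namely Prss1, Prss2, Prss3, LOC286960, LOC312273, LOC683849 and AC142181.2, out of the 32883 genes in the count matrices. They were chosen by their measured UMI levels in acinar cells and in T and islet cells of each library, and for the presence of some of them in single libraries, so their levels are a description and carry no test. The pancreas of 6 male Wistar rats was studied by droplet-based 3' single-cell RNA sequencing, in which each captured mRNA molecule is counted once by its unique molecular identifier (UMI), with 1 library per rat. Levels are given as CPM, the UMIs of a gene per 1000000 UMIs of the cells compared. The young rats (2 animals) were 2 months old and taken at baseline. The old rats (2 animals) were 20 months old after 18 months on normal chow, and the HFHF-old rats (2 animals) were of the same age after 18 months on a high-fat high-fructose diet. All cells came from islet preparations made with collagenase P and a density gradient. Libraries are called young 1, young 2, old 1, old 2, HFHF-old 1 and HFHF-old 2 below, and lists of 6 values follow this order.

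Acinar cells make trypsinogens, the inactive precursors, and store them in zymogen granules. Enteropeptidase activates trypsinogen in the duodenum, and trypsin then activates the other pancreatic zymogens. Within the pancreas, early trypsin is held back by the inhibitor Spink1 and by degradation through chymotrypsin C, and activation inside the acinar cell, in which cathepsin B takes part, is a step in pancreatitis. In rat, Prss1 and Prss2 encode the main anionic trypsinogens. The other loci are annotated as trypsin genes or as trypsin-like, and LOC286960 is listed in RefSeq with the synonyms P23 and Try4. AC142181.2 is a clone-based name without a RefSeq match, and its product is not known here.

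In RefSeq (assembly GRCr8), the loci that could be matched lie on chromosome 4 in the order LOC312273, LOC286960, Prss3, Prss2, LOC683849 and Prss1. Promoters, from 250 bases before to 50 bases after the annotated start, were found for 4 of the 7 members and are printed because LOC683849, the locus whose level differed most between libraries of the 4, lies between Prss2 and Prss1. Capitals mark 3 motifs. The E-box was searched as CACCTG on both strands, the reverse complement reading CAGGTG. The TC-box was searched as TTTCCC on both strands, the reverse complement reading GGGAAA. An E-box and a TC-box together make up the sites bound by the acinar factor PTF1. The TATA box was searched as TATAAA on the strand of the gene only, and no match overlapped another.
Prss1, chr4:71330999-71331298, plus strand: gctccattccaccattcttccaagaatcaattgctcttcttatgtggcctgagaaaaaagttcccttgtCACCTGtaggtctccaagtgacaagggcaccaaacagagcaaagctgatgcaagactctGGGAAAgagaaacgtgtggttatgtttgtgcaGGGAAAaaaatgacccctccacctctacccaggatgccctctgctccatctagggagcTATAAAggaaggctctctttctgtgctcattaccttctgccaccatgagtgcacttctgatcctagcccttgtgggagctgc
Prss2, chr4:71244714-71245013, plus strand: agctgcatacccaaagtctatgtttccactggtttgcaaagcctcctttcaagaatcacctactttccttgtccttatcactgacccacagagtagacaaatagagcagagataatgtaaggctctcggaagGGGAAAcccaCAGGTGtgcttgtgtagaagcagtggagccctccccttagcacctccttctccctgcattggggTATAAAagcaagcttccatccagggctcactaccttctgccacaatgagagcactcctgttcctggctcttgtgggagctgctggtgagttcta
LOC683849 (now Prss2l1 in RefSeq), chr4:71310748-71311047, plus strand: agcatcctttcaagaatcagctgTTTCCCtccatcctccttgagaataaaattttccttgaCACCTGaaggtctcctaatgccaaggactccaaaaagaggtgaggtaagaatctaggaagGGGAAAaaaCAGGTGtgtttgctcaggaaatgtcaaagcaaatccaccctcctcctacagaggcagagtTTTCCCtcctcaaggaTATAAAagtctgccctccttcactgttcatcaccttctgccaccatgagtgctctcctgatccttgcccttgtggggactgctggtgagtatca
LOC312273 (now Prss3bl1 in RefSeq), chr4:70770237-70770536, minus strand: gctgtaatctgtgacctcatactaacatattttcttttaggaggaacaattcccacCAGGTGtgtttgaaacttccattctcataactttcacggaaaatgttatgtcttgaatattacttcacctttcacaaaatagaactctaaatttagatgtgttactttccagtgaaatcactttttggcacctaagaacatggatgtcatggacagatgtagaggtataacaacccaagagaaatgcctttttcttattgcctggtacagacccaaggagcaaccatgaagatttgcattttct

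The promoters of Prss1, Prss2 and LOC683849 each held a TATA box, an E-box and a TC-box, while that of LOC312273 held an E-box alone. In Prss2 the TC-box began 118 bases and the E-box 108 bases before the start, with 4 bases between them. LOC683849 held the same arrangement at 129 and 120 bases before the start, with 3 bases between. In Prss1 the closest E-box and TC-box were 53 bases apart. Among 33469 promoters of this length, 18.8% held the E-box, 25.1% the TC-box, 8.80% the TATA box and 0.385% an E-box and a TC-box no more than 10 bases apart. Global alignment gave 74.4% identity between the promoters of Prss1 and LOC683849, 71.3% between Prss2 and LOC683849 and 68.9% between Prss1 and Prss2. LOC312273 had 51.6 to 55.4% identity to these. The motif matches are letters in a window, and binding was not measured.

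The libraries held 77387928 to 166875258 UMIs, and 75201 of 78024 barcodes passed the filters. Cells with at least 10% of their UMIs from Ctrb1, Cela1, Cela3b, Clps and Pnlip were taken as acinar, and they numbered 370, 591, 747, 369, 840 and 67, or 2984 in all, with median UMIs of 2662, 4476, 4192, 2205, 8153 and 3654. The carboxypeptidase gene Cpa1, which the gate did not use, stood between 15310 and 33958 CPM in these cells, and Ptf1a, which encodes the acinar-defining factor, between 22.9 and 32.9 CPM, against at most 0.539 CPM in T cells. Hormone RNA was also present in the gate, most in old 1 with Ins1 at 42093 CPM, and doublets were retained. T cells numbered 212, 64, 627, 1649, 270 and 1221, and islet cells, with at least 10% of UMIs from 6 hormone genes, 753, 4086, 446, 2525, 364 and 6. HFHF-old 2 stood apart, with 8327 NK cells among 11716 barcodes, and its 6 islet cells were not used. Between 20 and 64 kept barcode sequences were shared by any 2 libraries.

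Prss1 was the dominant trypsin gene. It stood at 95751, 113414, 96466, 112709, 167437 and 47392 CPM in acinar cells. The 4 young and old libraries lay within a narrow band, and the HFHF-old libraries were the highest and the lowest of the 6. The young rats had a mean of 104583 ± 12489, the old rats of 104587 ± 11485 and the HFHF-old rats of 107415 ± 84885 (SD, n = 2 each). The spread within HFHF-old thus exceeded every difference between group means. All acinar cells held Prss1, with a median per cell of 98119, 101291, 86865, 94225, 160728 and 39329 CPM. Prss1 made up 87.7, 92.9, 91.8, 94.4, 85.8 and 50.6% of the UMIs of the 7 genes. In HFHF-old 2, LOC683849 and AC142181.2 made up 38.1% of these UMIs, all in 4 of its 67 acinar barcodes, described below. Without these 4 barcodes Prss1 stood at 49972 CPM there, against 985 CPM or less for each other member.

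Prss2, the second anionic trypsinogen gene, stood at 4263, 5251, 2787, 4279, 8124 and 1490 CPM in acinar cells. It had the same extremes as Prss1, with HFHF-old 1 highest and HFHF-old 2 lowest, and the HFHF-old libraries enclosed the young and old values. Means were 4757 ± 698 for the young, 3533 ± 1055 for the old and 4807 ± 4691 for the HFHF-old rats (SD, n = 2 each). The ratio of Prss1 to Prss2 UMIs ranged from 20.6 in HFHF-old 1 to 34.6 in old 1. In HFHF-old 2, however, 1 barcode held 44.9% of the Prss2 UMIs of acinar cells. Without it and the 3 barcodes described with it below, Prss2 stood at 888 CPM there and the ratio was 56.3 in place of 31.8. Across acinar cells within a library, the correlation of Prss1 and Prss2 (log2 UMIs per 10000 plus 1) had a median of 0.479 over the 6 libraries, between 0.322 and 0.615. The cells of a correlation share their library and the total UMIs they were scaled by.

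**Figure D1:**
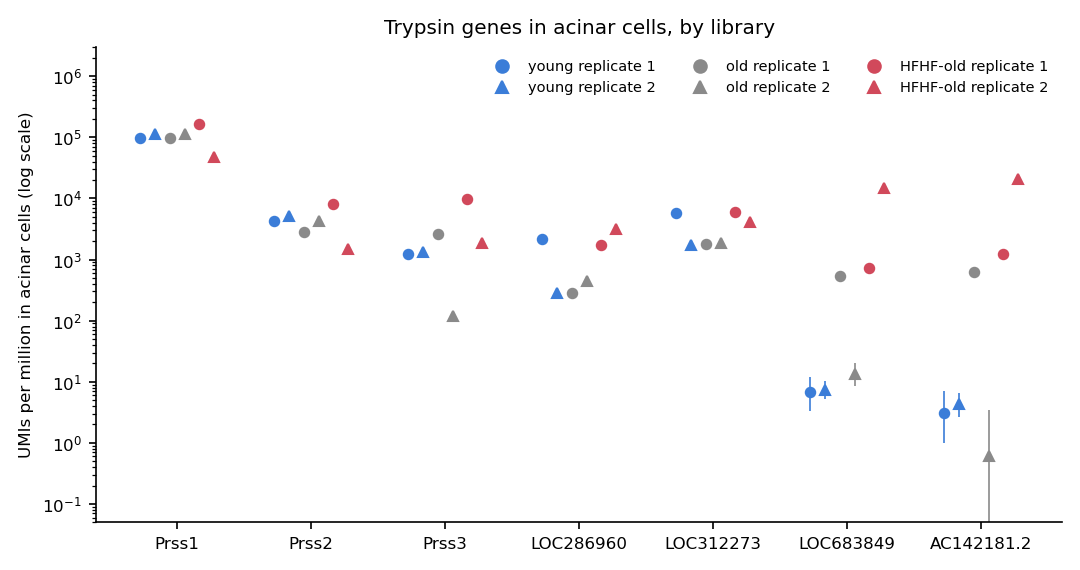
CPM of the 7 genes in the acinar cells of each library, on a log axis, with colours for groups, shapes for replicates and bars for exact 95% Poisson intervals of the counts (counting error only; most are smaller than the symbols, and the lower end for AC142181.2 in old 2 runs below the axis). Prss1 lies above the other 6 genes in every library, and LOC683849 and AC142181.2 span the widest range.

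Prss3 differed widely between the old libraries. It stood at 1215, 1346, 2597, 119, 9896 and 1889 CPM in acinar cells. The young libraries were close together, whereas old 2 lay below and HFHF-old 1 above all others. In old 2 only 11.4% of acinar cells held a Prss3 UMI and 195 UMIs were counted in all (95% Poisson interval 103 to 137 CPM), against 67.0, 77.7, 80.5, 97.3 and 19.4% in young 1, young 2, old 1, HFHF-old 1 and HFHF-old 2. Depth differed as well, with the lowest acinar median of UMIs in old 2, and its part was not tested. The share of T cells with a Prss3 UMI in old 2 was 2.67% at a median of 3101 UMIs, against 2205 UMIs in its acinar cells. The Prss3 level in T cells was 5.88% of the acinar level in old 2, against 0.562 to 1.10% for Prss2, Prss1, LOC312273 and LOC286960. Group means were 1281 ± 92.7, 1358 ± 1752 and 5893 ± 5662 CPM in young, old and HFHF-old rats (SD, n = 2 each), and the HFHF-old values lay on both sides of that of old 1. In HFHF-old 2, 1 barcode held 71.6% of the Prss3 UMIs of acinar cells, and the level was 526 CPM without it and the 3 barcodes described with it below. Reads shared between trypsin genes were not measured.

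LOC312273 stood at 5855, 1721, 1795, 1870, 5953 and 4109 CPM in acinar cells. Young 1 and HFHF-old 1 were alike, and young 2 and both old libraries lay together at a lower level. LOC286960 was lower throughout, at 2143, 281, 283, 449 and 1742 CPM in the first 5 libraries and 3128 in HFHF-old 2. The same libraries were high and low as for LOC312273. The LOC312273 to LOC286960 ratio of UMIs was 1.31 in HFHF-old 2, the lowest, and 6.34 in old 1, the highest. Across acinar cells these 2 genes had a median correlation of 0.474 over the 6 libraries, between 0.393 and 0.629. No other 2 members had a minimum as high. The highest value was that of HFHF-old 2, and the correlations were not repeated without the barcodes described next. In HFHF-old 2, however, 1 barcode held 94.9% of the LOC286960 and 75.7% of the LOC312273 UMIs of acinar cells. Without it and 3 further barcodes described next the levels were 23.0 and 985 CPM and the ratio was 42.9, the highest of the 6. That ratio rests on few UMIs of LOC286960 in 63 cells, in which 3 counts would be 8.62 CPM. In old 1 the ratio was 10.3 without 1 such barcode. Without all barcodes of this kind, 35 of them in HFHF-old 1, the HFHF-old means of 2435 ± 980 for LOC286960 and 5031 ± 1304 for LOC312273 were 850 ± 1170 and 3452 ± 3489 (SD, n = 2 each). LOC286960 in HFHF-old 2 was then below both old libraries (157 and 449 CPM), while HFHF-old 1, at 1677 CPM, stayed above them.

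LOC683849 was nearly absent from 3 libraries. It stood at 6.70, 7.37, 540, 13.5, 735 and 15051 CPM in acinar cells, from 11, 36, 2268, 22, 10319 and 5919 UMIs. AC142181.2 followed it, at 3.05, 4.30, 633, 0.612, 1244 and 20632 CPM, from 5, 21, 2660, 1, 17467 and 8114 UMIs. Old 1 and both HFHF-old libraries were high for both loci, and young 1, young 2 and old 2 were low. In old 1 this rested on 1 barcode, without which LOC683849 stood at 4.54 and AC142181.2 at 2.15 CPM. Together they made up 0.00893, 0.00956, 1.12, 0.0118, 1.01 and 38.1% of the UMIs of the 7 genes in acinar cells. Among the low libraries the order differed, with old 2 highest for LOC683849 and lowest for AC142181.2, at counts of 1 to 36 UMIs. Whether reads of both loci stem from 1 transcript was not tested. As a mean over cells, in which each barcode weighs the same, LOC683849 stood at 145, 3535 and 4885 CPM and AC142181.2 at 168, 6004 and 6880 CPM in old 1, HFHF-old 1 and HFHF-old 2. The distance between the HFHF-old libraries was far smaller on that scale. However, the HFHF-old 2 means came from 4 of its 67 acinar barcodes, whereas 99.3% of those of HFHF-old 1 held a UMI of either locus.

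In old 1 and HFHF-old 2, the level came from single barcodes. In old 1, 1 of 747 acinar barcodes, with 21361 UMIs and 932 genes, held 99.4% of the UMIs of LOC683849 and AC142181.2 in acinar cells, and the pair made up 22.9% of its UMIs. In HFHF-old 2, 1 of 67 acinar barcodes, with 42298 UMIs and 1095 genes, held 96.8% of the AC142181.2 and 97.0% of the LOC683849 UMIs, and the pair made up 32.1% of its UMIs. The other HFHF-old 2 acinar UMIs of the pair lay in 3 barcodes of 801 to 1143 UMIs with the pair at 13.9 to 16.9%, whose sequences differed from that of the first by 7 to 14 bases. Without barcodes in which the pair reached 5% of UMIs, a limit set after the values were seen, the pair fell from 1173 to 6.70 CPM in old 1 and from 35683 to 0 CPM in HFHF-old 2. The count of 0 in the 63 remaining acinar cells of HFHF-old 2 allows a level of up to 8.62 CPM (3 counts). Without likely doublets, that is with hormone genes under 1% of UMIs and fewer than 2 markers of any other class, LOC683849 stood at 4.55 CPM in old 1 and 538 CPM in HFHF-old 2.

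The 2 large barcodes were alike in some other genes and unlike in others. LOC286960 made up 2.50% of the UMIs in that of old 1 and 2.76% in that of HFHF-old 2, against 0.0157 and 0.00230% in the other acinar cells of these libraries. LOC312273 (3.60 and 2.89% against 0.162 and 0.0985%), Prss3 (1.80 and 1.26% against 0.252 and 0.0526%) and Prss2 (1.17 and 0.622% against 0.274 and 0.0888%) were higher as well. Prss1 was lower in both, at 5.51 and 2.76% against 9.67 and 4.997%. Of the enzymes of the gate, the chymotrypsinogen gene Ctrb1 was higher (18.2 and 22.4% against 8.14 and 5.83%) and the lipase gene Pnlip lower (1.83 and 0.818% against 4.62 and 4.12%). The elastase gene Cela2a (5.27 and 3.16% against 4.504 and 3.94%) and Ctrl (1.58 and 0.669% against 1.16 and 1.12%) were higher in the barcode of old 1 and lower in that of HFHF-old 2. Cela1 was alike in old 1 (1.55 against 1.54%) and lower in HFHF-old 2 (0.754 against 1.47%), and Try5 had 32 UMIs in the barcode of old 1 and 1 in that of HFHF-old 2. Mitochondrial genes gave 0.0749 and 0.0709% of their UMIs. Cd3e, C1qa and Col1a1, each a single marker of T cells, macrophages and fibroblasts, were at 0 UMIs in both. The rule for likely doublets nevertheless left both barcodes out. Hormone genes gave 0.211 and 0% of their UMIs, so each held at least 2 markers of some other class, which is not named here. The barcode of HFHF-old 1 with the most UMIs of the pair (3836 UMIs in all) also held more LOC286960 than the other acinar cells of its library (2.53 against 0.168%), but less Prss3 (0.365 against 0.992%) and a like share of Prss2 (0.860 against 0.814%). Each profile is that of 1 barcode, so no error between cells can be given.

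**Figure D2:**
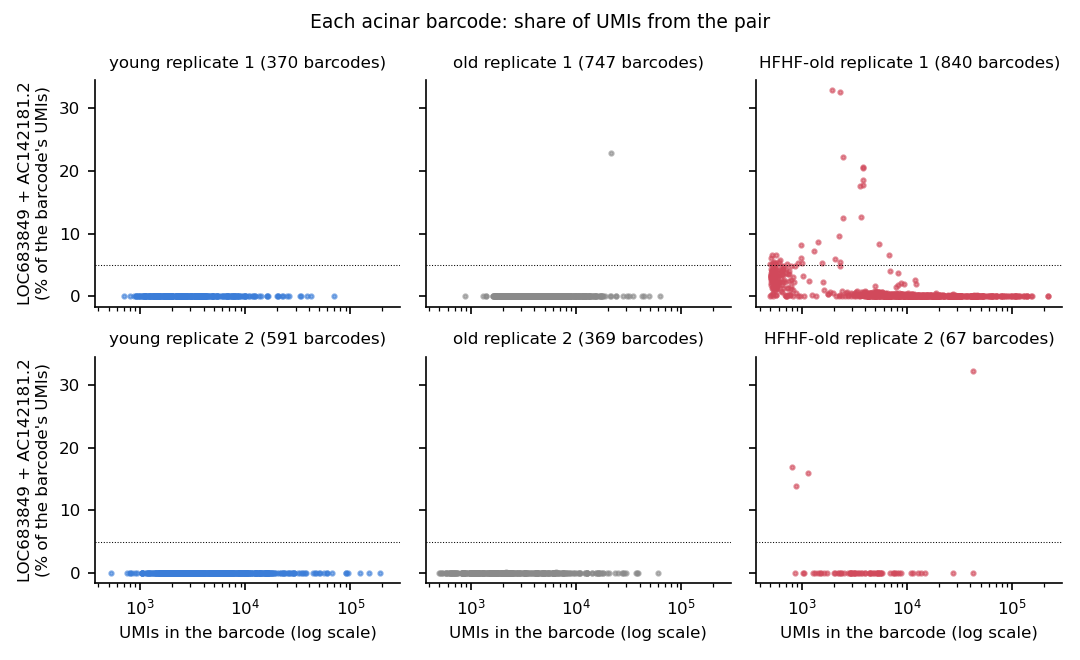
Each point is an acinar barcode, with its UMIs on a log axis and the percent of them from LOC683849 and AC142181.2 together, in 1 panel per library (370, 591, 747, 369, 840 and 67 barcodes). The dotted line marks 5%; 1 barcode lies above it in old 1 and 4 in HFHF-old 2, and 35 in HFHF-old 1, whereas young 1, young 2 and old 2 have none.

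In HFHF-old 1 the pair was spread over nearly all barcodes instead. Of 840 acinar barcodes 99.3% held at least 1 UMI of the pair, and 35 reached 5% of UMIs. Without these 35 barcodes the level fell from 1978 to 1372 CPM. Over all cell classes 52 barcodes reached the limit, and the values on either side of it were 4.99 and 5.01%. In the 131 acinar barcodes with under 1000 UMIs the pair made up 2.84% and Prss1 5.16% of UMIs, and in the other 709 they made up 0.182 and 16.8%. The median count of the pair was 16 UMIs in the small and 19 UMIs in the large barcodes, and single acinar barcodes reached 791 UMIs.

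The pair was also widespread outside the acinar cells of HFHF-old 1. A median of 7 UMIs of the pair was counted per T cell and 8 per islet cell, NK cell, macrophage and fibroblast, and 94.2 to 99.3% of the barcodes of these 5 classes held it. The acinar gate contained 16.6% of all UMIs of the pair in this library and 87.1% of those of Prss1, whereas it contained 98.4% of those of the pair in old 1 and 98.2% in HFHF-old 2. Macrophages, the largest class with 5541 barcodes, held 41.1%. The pair made up 25.9% of the UMIs of the 7 genes in T cells, 25.5% in islet cells, 26.7% in NK cells, 24.6% in macrophages and 23.9% in fibroblasts, and 29.5 and 30.1% in the 49 endothelial and 36 B cells, against 1.01% in acinar cells (95% Wilson intervals 25.1 to 26.8% in T cells and 1.00 to 1.03% in acinar cells). The UMIs of the 7 genes outside the acinar gate thus had another composition than those inside it. The ratio of AC142181.2 to LOC683849 UMIs was 1.69 in acinar cells, 1.69 in T cells, 1.68 in islet cells, 1.75 in NK cells, 1.66 in macrophages, 1.69 in fibroblasts, 1.84 in endothelial cells and 1.89 in B cells. It was 1.17 in the acinar cells of old 1 and 1.37 in those of HFHF-old 2, each almost wholly from 1 barcode. In the acinar cells of young 1 and young 2 it was 0.455 and 0.583, at 5 to 36 UMIs of each locus.

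**Figure D3:**
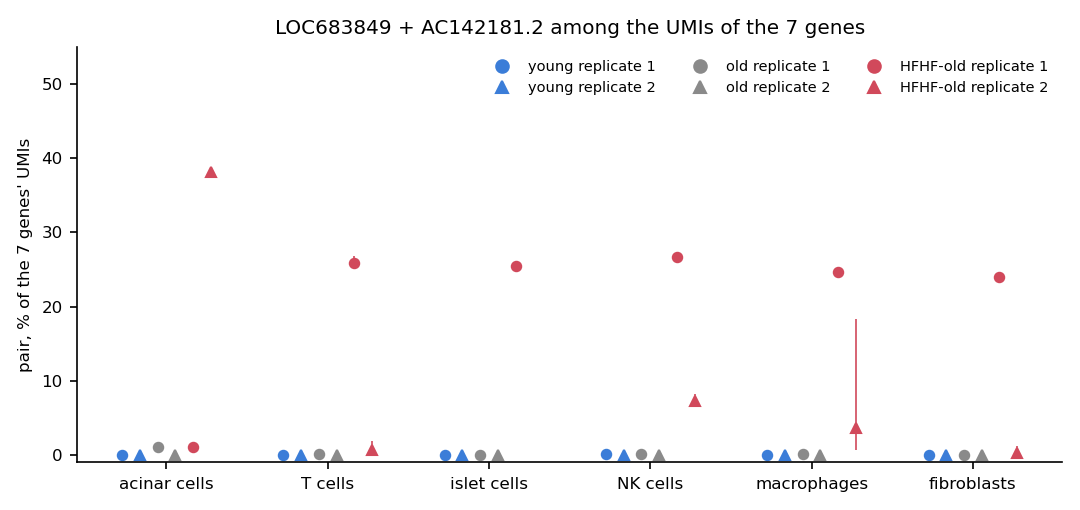
Percent of the UMIs of the 7 genes that came from LOC683849 and AC142181.2, in 6 cell classes of each library, with 95% Wilson intervals of the counts; classes with under 10 cells in a library are left out, and B and endothelial cells are not drawn. HFHF-old 1 lies between 23.9 and 26.7% in the 5 drawn classes other than acinar cells and at 1.01% in acinar cells, while HFHF-old 2 reaches 38.1% in acinar cells and 7.24% in NK cells, where 1 barcode held 178 of the 245 UMIs of the pair.

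RNA of trypsin genes in T and islet cells is given as a measure of free RNA. RNA of broken acinar cells can enter droplets that hold other cells. Doublets were retained and can add trypsin RNA too, and the part of each source was not tested. In T cells Prss1 stood at 332, 1183, 1235, 784, 3448 and 50.6 CPM, and 76.4, 98.4, 99.5, 72.0, 100 and 17.4% of the cells held a UMI. HFHF-old 1 was highest and HFHF-old 2, with the fewest acinar cells, lowest. As a percent of the acinar level of the same library, Prss1 in T cells was at 0.347, 1.04, 1.28, 0.696, 2.06 and 0.107%. Prss2 lay close to these, at 0.502, 1.13, 1.37, 0.562, 2.03 and 0.0800%. Prss3 (2.19%) and LOC312273 (2.99%) were near the same percent in HFHF-old 1, LOC286960 was at 7.64%, and LOC683849 and AC142181.2 were at 73.5 and 73.3%. In T cells of the other 5 libraries the pair had 0 to 5 UMIs, or at most 0.900 CPM, and the counts of 0 in young 1 and young 2 allow up to 2.14 and 5.26 CPM (3 counts). Among T cells with under 1% of UMIs from the 5 acinar genes, Prss1 fell to 809 CPM in old 1, 485 in old 2 and 29.9 in HFHF-old 2.

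In islet cells Prss1 stood at 230, 14772, 1516, 327 and 1295 CPM in young 1, young 2, old 1, old 2 and HFHF-old 1. Young 2 lay far above the rest, and its islet cells also held Prss2 at 683, LOC312273 at 180, Prss3 at 164 and LOC286960 at 49.4 CPM, or 10.4 to 17.6% of the acinar levels of these 5 genes. Clps, a gene of the acinar gate, stood at 5877 CPM there, against 231 to 1011 in the other 4 libraries. In the 554 of 4086 islet cells of young 2 with under 1% of UMIs from the 5 acinar genes, Prss1 was 808 CPM. Under the same limit it was 204, 331, 174 and 880 CPM in young 1, old 1, old 2 and HFHF-old 1, so that HFHF-old 1 was then highest. Most of the trypsin RNA of the islet class of young 2 therefore lay in barcodes that also carried other acinar RNA. Choosing barcodes low in acinar genes builds in a fall of Prss1, and whether the other barcodes were doublets was not tested. LOC683849 and AC142181.2 reached 197 and 332 CPM in the islet cells of HFHF-old 1 and at most 0.691 and 0.485 CPM in those of the other 4 libraries. In the islet cells of HFHF-old 1 with under 1% of UMIs from the acinar genes they stood at 113 and 189 CPM.

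**Figure D4:**
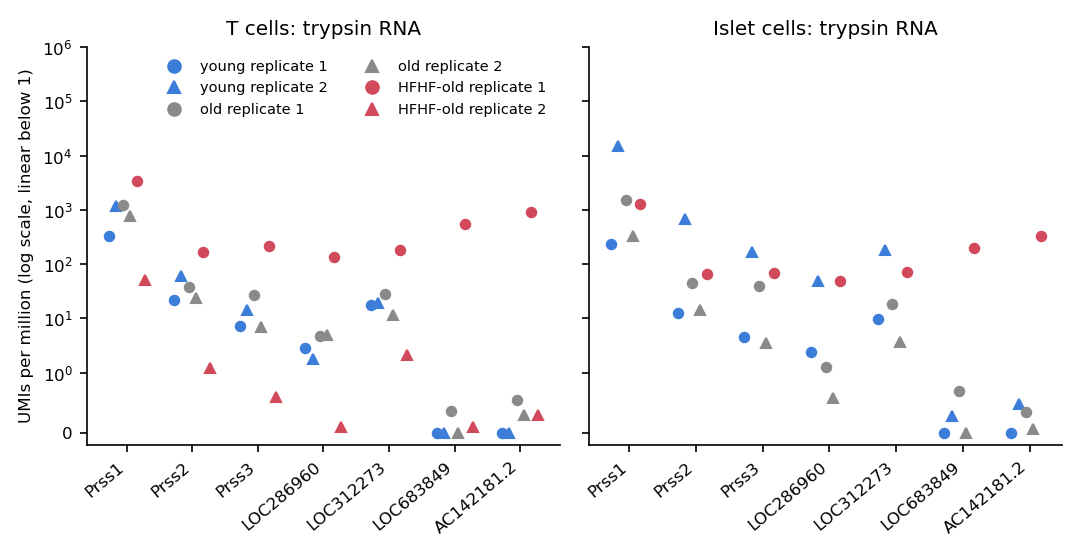
CPM of the 7 genes in T cells (left) and islet cells (right) of each library, on an axis that is logarithmic above and linear below 1, with colours for groups and shapes for replicates; HFHF-old 2 has no islet value. LOC683849 and AC142181.2 are near 0 in all but HFHF-old 1, and young 2 is highest for the other 5 genes in islet cells, with HFHF-old 1 nearly equal for LOC286960.

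By their median over the 6 libraries, the acinar levels fell in the order Prss1 (104587 CPM), Prss2 (4271), LOC312273 (2989), Prss3 (1618), LOC286960 (1096), AC142181.2 (319) and LOC683849 (277). Without the barcodes in which the pair reached 5% of UMIs, the medians were 1795 for LOC312273, 1281 for Prss3, 365 for LOC286960, 2.60 for AC142181.2 and 7.03 for LOC683849. UMIs were counted at the 3' end, so these levels do not scale with transcript length. Prss1 did not overlap with any other member, and the ranges of all neighbours below it overlapped. Likeness was ranked among genes outside the members only. Among 143 genes with a mean of at least 1 UMI per acinar cell in every library, those most like Prss1 across cells were the trypsin gene Prss3b (median correlation 0.597 over 6 libraries), Ctrb1 (0.566), the elastase gene Cela2a (0.543), the granule protein gene Zg16 (0.515) and the chymotrypsin-like gene Ctrl (0.513). Those most like LOC312273 were Ctrb1 (0.399), Ctrc (0.387), Cela2a (0.360), Prss3b (0.323) and Cpb1 (0.311). For Prss2 they were Ctrb1 (0.408), Cela2a (0.352), Zg16 (0.292), AC142181.1 (0.274) and Ctrl (0.257), and for LOC286960 Ctrb1 (0.214), Cela2a (0.187), Ctrc (0.183), Spink1 (0.174) and Reg1a (0.169). Between libraries these correlations ranged widely, and the lowest was below 0 for Prss2 with Ctrb1 (-0.256) and Zg16 (-0.110) and for LOC312273 with Prss3b (-0.147), and for all LOC286960 genes but Spink1. The values for LOC286960 are low, in sparse counts, and no likeness is read from them. LOC286960 reached 1 UMI per acinar cell in old 1 and HFHF-old 2 only with the barcodes rich in LOC683849 and AC142181.2. Prss3, LOC683849 and AC142181.2 had under 1 UMI per acinar cell in at least 1 library and were not compared. Between members, the median correlation of Prss1 with Prss2 (0.479) exceeded every value listed for Prss2. That of LOC312273 with LOC286960 (0.474) was above the values listed for either. It includes the barcodes rich in LOC683849 and AC142181.2, so no likeness is read from it either.

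The genes that act on trypsin were tested over rats with UMIs summed per library in acinar cells, by edgeR's quasi-likelihood test in 1 fit of all 6 rats. Of 8258 genes tested, 0 were called (0%) in each of the 3 contrasts of HFHF-old with old, old with young and HFHF-old with young rats, where a call needed an adjusted p (Benjamini-Hochberg) under 0.05 with a change of over 1.5-fold. The unadjusted p was under 0.05 for 626, 162 and 548 genes, and DESeq2 called 3, 3 and 17. In data simulated for HFHF-old against old, edgeR recovered 73.0% of genes changed by 3 on the log2 scale, beside 18 calls among unchanged genes, and 0% of those changed by 2. All 7 members passed the filter on low counts.

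Of the list on activation, inhibition and sensing of trypsin, 10 of 14 genes in the files were tested and 0 were called in any contrast. The median log2 fold change of HFHF-old over old was -0.41, that of old over young 0.16 and that of HFHF-old over young -0.18, beside medians of 0.00, 0.01 and -0.02 over all genes. These values follow TMM scaling of the libraries. Scaled by total UMIs as the CPM are, all genes had medians of 0.38, -0.29 and 0.06 and the list of -0.01, -0.18 and -0.12. For old over young the sign of the list's median turned with the scaling, but all genes moved the same way. The list's median stayed above that of all genes in both scalings of this contrast. Spink1, the trypsin inhibitor of the granule, stood at 2019, 1471, 1206, 1793, 1416 and 1721 CPM in acinar cells. Its log2 fold change for HFHF-old against old was -0.35 ± 0.43 (SE), with an adjusted p of 0.810 by edgeR, and it was 0.07 ± 0.35 (adjusted p = 0.961) when scaled by total UMIs. Ctrc, the chymotrypsin C gene, stood at 15398, 17648, 18623, 27704, 12582 and 18473 CPM. Its log2 fold change for the same contrast was -0.99 ± 0.47 (SE), with an adjusted p of 0.638 by edgeR. Scaled by total UMIs it was -0.58 ± 0.36 (edgeR adjusted p = 0.556). For Spink1 the groups overlapped, whereas for Ctrc both old libraries lay above the other 4. The serpin gene Serpini2 stood at 686, 685, 446, 424, 391 and 404 CPM. Its young libraries lay above the other 4, with a log2 fold change for HFHF-old against young of -0.85 ± 0.35 (SE) and an edgeR adjusted p of 0.718. Ctsb, which encodes cathepsin B, stood at 348, 229, 298, 146, 655 and 25.4 CPM, so that the HFHF-old rats were the extremes, as for Prss1. The HFHF-old 2 value rests on 10 UMIs. Likely doublets were retained, and only 120 of 840 acinar barcodes of HFHF-old 1, against 57 of 67 of HFHF-old 2, passed the rule for them. The macrophage marker C1qa, without barcodes rich in LOC683849 and AC142181.2, stood at 408, 292 and 0 CPM in old 1, HFHF-old 1 and HFHF-old 2. The part of RNA from other cells was not tested. Enteropeptidase (Tmprss15), F2rl1, Casr and Cftr did not pass the filter.

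Of the list of other digestive enzymes and granule proteins, 12 of 13 genes in the files were tested and 0 were called. The median log2 fold change of HFHF-old over old was -0.55, that of old over young 0.29 and that of HFHF-old over young -0.10. Scaled by total UMIs these medians were -0.16, -0.04 and -0.04. The sign for old over young turned here too, while the median of all genes moved from 0.01 to -0.29. The list's median stayed above that of all genes in both scalings of this contrast. The phospholipase gene Pla2g1b stood at 48717, 51779, 23672, 36177, 12632 and 16480 CPM, without overlap between groups. Its log2 fold change was -1.46 ± 0.48 (SE) for HFHF-old against old, with an adjusted p of 0.638 by edgeR, and -1.85 ± 0.48 for HFHF-old against young, with an adjusted p of 0.718. Scaled by total UMIs these were -1.04 ± 0.35 and -1.79 ± 0.36 (edgeR adjusted p = 0.458 and 0.743). How many of all tested genes kept a group apart, as Pla2g1b, Ctrc and Serpini2 did, was not counted. Cela2a and Cpa1 stood at 26981 to 54422 and 15310 to 33958 CPM. HFHF-old 1 had the highest Cpa1 and the lowest Cela2a of the 6 libraries. Of the 6 acinar regulators all were tested and 0 were called. Rbpjl, which encodes a subunit of PTF1, stood at 20.1, 33.8, 15.2, 22.7, 118 and 28.0 CPM, with HFHF-old 1 above the rest. Its log2 fold change for HFHF-old against old was 1.62 ± 0.66 (SE) with an adjusted p of 0.638 by edgeR. Scaled by total UMIs it was 2.04 ± 0.65 (edgeR adjusted p = 0.458). Ptf1a (22.9 to 32.9 CPM), Xbp1 (22.9 to 53.5) and Bhlha15 (10.2 to 36.0) completed the regulators named.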

How the data were processed

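The authors deposited whole-number UMI counts, 1 filtered matrix of genes by barcodes per rat, made with Cell Ranger. Per the file headers the version was 5.0.0, whereas the paper names a later one, and the submitters' processing notes name Rnor_6.0. Cell Ranger counts reads assigned to 1 gene, so reads shared by trypsin paralogs can be lost. Barcodes with under 200 genes, over 25% mitochondrial UMIs or a gene number in the pooled top 1% (from 6332 genes) were left out. No doublet caller was run, and free RNA was not subtracted. Other cells were classed by at least 2 markers of 1 class. Members and gene lists were chosen with earlier results of these data known.

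UMIs were summed per rat over acinar cells (393270 to 14046261 UMIs) and fitted with edgeR 4.0.16 (TMM, filterByExpr, glmQLFit, glmQLFTest) in R 4.3.3, leaving 3 residual degrees of freedom. DESeq2 1.42.0 was an alternative, with other gates, filters, left-out rats and a replicate term. Standard errors are the absolute log2 fold change over the square root of F. The p-values of edgeR rest on the spread between the 2 rats of a group, pooled over the groups in 1 fit and moderated across genes. Intervals cover counting error only. The text names all members and called list genes (otherwise the 4 with the highest mean level of each list). It also names the 5 non-member genes most like a member across acinar cells. One gene that this rule names is not reported here. Spink3, Amy2a3 and Klk1, and the markers Pecam1 and Cd79a, had no row under these symbols. Promoters are from RefSeq, GRCr8, another build than that of the files. Scripts were tested on simulated counts.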

Additional observations from a re-analysis of the deposited data

How the results depend on the processing

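The counts of genes called in acinar cells were 0 in all 3 contrasts and stayed at 0 with gates of 5% and 20% and, chosen after seeing the data, with scaling by total UMIs. With all genes of at least 1 UMI, edgeR called 128 genes in HFHF-old against old rats, 57 in old against young rats and 152 in HFHF-old against young rats, and DESeq2 called 3, 3 and 17. Without likely doublets (hormone genes at 1% of UMIs or more, or at least 2 markers of another class) the counts were 2 for HFHF-old against old rats and 3 for HFHF-old against young rats. Leaving out each rat in turn gave 0 to 5, 0 and 0 to 71 calls in the same order. The 71 and the 5 came without HFHF-old 1, which left HFHF-old 2, with 67 acinar cells, alone and assumed to vary like the other groups. Without HFHF-old 2, 1 gene was called in each contrast with HFHF-old. The cause was not tested. With a replicate block 0 genes were called in each contrast. Each library was a separate rat, and deviations of same-numbered rats correlated at 0.0445, 0.106 and 0.238, so the numbers were not taken as pairs.

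Of 42 acinar levels of members, 0 moved by over 1.5 times with a gate of 5%, 4 with a gate of 20%, 0 without the barcode filter, 15 without likely doublets and 13 as a mean over cells. Without the barcodes rich in LOC683849 and AC142181.2, chosen after seeing the data, 9 moved. With barcodes of under 1% acinar UMIs, 10 of 42 T cell and 21 of 35 islet levels moved.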

Other observations

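Other trypsin genes of the cluster that were not among the 7 showed 2 patterns. Prss3b, also annotated as a trypsin, stood at 19717, 27070, 25632, 21339, 11790 and 21606 CPM in acinar cells in the order young 1 to HFHF-old 2, second to Prss1 in every library. It was lowest in HFHF-old 1, where Prss1 was highest. Try5 stood at 29.3, 138, 60.7, 0, 176 and 2.54 CPM. It had 0 UMIs in old 2, the library in which Prss3 was lowest, where 3 counts would be 1.84 CPM. Try10 had 0 to 12 UMIs in the acinar cells of each library.

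In HFHF-old 2, 1 NK barcode held 178 UMIs of LOC683849 and AC142181.2, out of 245 in all 8327 NK cells of that library.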
